A study of Mus musculus with 4 samples.

Results

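The prostaglandin genes described here are Ptgs1, Ptgs2, Ptges, Ptgis, Ptgds, Ptger2, Ptger4 and Hpgd. Their probes were found by gene name among the non-control spots of the deposited scanner data and were read on all 4 arrays of the study. This gave 8 genes and 11 probes, of 22328 named genes and 55681 probes. Ptges, Ptgis and Hpgd had 2 probes each and the other genes 1 each.

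Cyclooxygenases turn arachidonate, released from membranes by phospholipases A2, into the unstable intermediate prostaglandin H2. Terminal synthases convert this intermediate into prostaglandin E2, prostacyclin, prostaglandin D2 and other prostanoids, which leave the cell and act on surface receptors coupled to G proteins. In the brain, prostaglandin D synthase is abundant in glia and meninges, and the inducible cyclooxygenase is known for its rise in inflammation and in many tumours, gliomas among them.

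All 4 groups were p53-/- mouse cells from the brain of E14.5 embryos, grown without serum. NSC are neural stem cells, and NSC-Ceacam1L are such cells with a vector for the long form of the cell adhesion molecule Ceacam1. NSCL61 is an established line, which the field uses as glioma-initiating cells and which carries an activated HRas in a p53-deficient neural stem cell background, and NSCL61-Ceacam1sh is this line with a short hairpin RNA against Ceacam1. Per the labels, vector-transfected cells were kept in hygromycin for 1 week, and it is not said whether NSC and NSCL61 received an empty vector or whether a group was 1 clone or a pool. The design text asks which genes differ between NSC and NSC-Ceacam1L and between NSCL61 and NSCL61-Ceacam1sh, as candidates downstream of Ceacam1.

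With 1 single-colour array for each group, the differences have no replicate check and no p-value. The 4 arrays lay on 1 slide, 1 position each, and a position effect and a group effect cannot be told apart. The 75th percentile of the signals was 439 to 571, 62.7% to 67.2% of named genes were well above background on an array, and no spot was saturated. No probe carried the name Ceacam1, so the 2 manipulations could not be checked on these arrays. All 6 neural stem cell markers (Nes, Sox2, Pax6, Sox1, Fabp7 and Vim) were well above background on every array, but Fabp7 was at 8.36 in NSCL61 and -4.00 in NSCL61-Ceacam1sh, in log2 of the signal over the 75th percentile of the array.

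Levels below are the processed signal of a probe, or that log2 value relative to the 75th percentile. Calls of higher or lower needed a log2 difference whose size was 1 or more (2-fold), with the probe well above background on the brighter array. Where the dimmer array was not well above background, "at least" gives a lower bound of the fold: the brighter value over the dim array's detection limit (the weakest signal that still passed as well above background there) or over the dim value itself, whichever is higher. Where the dim value is the higher, this bound equals the measured fold and leaves out its error, as for Akr1c18 and the upstream Ptges probe between the NSC arrays. The error after ± is the scanner software's modelled error for the spots of both arrays, which covers technical spread within an array only. The brightness of a probe also depends on its sequence, so levels of different probes are not set against each other.

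The promoters of the genes on which the results turn are shown here with the motif matches that bear on them. RefSeq windows on GRCm38.p6, from 250 bases before to 50 bases after the annotated start, were held for 7 of the 8 genes; Ptgis had none. The motifs, searched on both strands, were the cAMP response element TGACGTCA, its core TGACG, the TATA box TATAAA, the E-box CACGTG, AP-1 TGANTCA, the CAAT box CCAAT, the GC box GGGCGG and C/EBP TTGCNNAA; this core is contained in the full cAMP response element. Capitals mark the matches in the 250 bases before the start. The 4 windows printed are those of both cyclooxygenases and of the synthases of prostaglandins E2 and D2. Ptgs2 lies at chr1:150099781-150100030 on the plus strand, Ptgs1 at chr2:36230176-36230425 on the plus strand, Ptges at chr2:30903298-30903547 on the minus strand and Ptgds at chr2:25469750-25469999 on the minus strand.
Ptgs2: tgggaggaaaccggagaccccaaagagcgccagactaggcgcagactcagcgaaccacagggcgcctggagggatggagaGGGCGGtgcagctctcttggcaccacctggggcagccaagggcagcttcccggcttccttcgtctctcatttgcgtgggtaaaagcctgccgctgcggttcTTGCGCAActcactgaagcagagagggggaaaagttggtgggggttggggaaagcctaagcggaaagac
Ptgs1: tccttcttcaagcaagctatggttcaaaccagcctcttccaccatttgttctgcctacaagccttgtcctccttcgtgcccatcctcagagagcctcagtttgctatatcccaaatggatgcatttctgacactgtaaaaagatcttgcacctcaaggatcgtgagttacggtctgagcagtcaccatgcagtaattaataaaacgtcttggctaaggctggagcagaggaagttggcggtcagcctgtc
Ptges: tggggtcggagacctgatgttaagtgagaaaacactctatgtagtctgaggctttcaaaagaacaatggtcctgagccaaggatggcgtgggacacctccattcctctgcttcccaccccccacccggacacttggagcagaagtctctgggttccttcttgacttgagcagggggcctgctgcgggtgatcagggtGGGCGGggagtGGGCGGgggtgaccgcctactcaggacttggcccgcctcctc
Ptgds: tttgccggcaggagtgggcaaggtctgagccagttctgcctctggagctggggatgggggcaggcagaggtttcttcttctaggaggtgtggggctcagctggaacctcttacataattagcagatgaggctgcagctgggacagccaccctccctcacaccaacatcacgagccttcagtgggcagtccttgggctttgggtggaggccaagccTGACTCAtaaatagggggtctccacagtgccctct

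The Ptgs2 window held 4 of the 8 motifs. A GC box began at base -170 and a palindromic C/EBP match at base -69, and just after the annotated start the core of a cAMP response element (base 14, minus strand) was followed by an E-box (base 17). These last 2 are the capitals of chr1:150100036-150100065, plus strand, caccactaCGTCACGTGgagtccgctttac, where the motifs share bases. The Ptgs1 window, by contrast, had no match to any of the 8 motifs. The Ptges window had GC boxes at bases -53 and -42, and the Ptgds window an AP-1 match at base -35. Of 32851 RefSeq windows of the same length, 20.8% held the core of the cAMP response element, 7.15% the E-box, 7.81% AP-1, 35.7% the GC box and 10.8% C/EBP. Of the windows not printed, that of Ptger4 had 4 GC boxes and a CAAT box, that of Ptger2 a CAAT box and a C/EBP match, and that of Hpgd a GC box and a TATA box match. A match describes the letters of these windows and is not a measured binding site.

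Across the 4 arrays, both cyclooxygenases were dark in NSC and NSCL61, low in NSC-Ceacam1L and very bright in NSCL61-Ceacam1sh, while Ptgds was bright on 3 arrays and low in NSCL61-Ceacam1sh. Of the 8 genes, 3 were well above background in NSC, 6 in NSC-Ceacam1L, 3 in NSCL61 and 6 in NSCL61-Ceacam1sh. Between the NSC arrays, 6 of the 8 genes were evaluated, 3 were called higher and 0 lower. Of all evaluated genes, 10.5% were called higher and 6.05% lower there (16.5% in either direction). Between the NSCL61 arrays, 6 were evaluated, 3 were called higher and 1 lower, beside 23.4% and 24.3% of all evaluated genes (47.7% in either direction). All the genes called higher entered the evaluated set through the array where they were bright, so their number is given as a description only. Between NSCL61 and NSC, only 3 of the 8 were evaluated and 0 of these were called in either direction, beside 28.4% of all evaluated genes. The Ptgis probe that these counts do not use was lower there, as given below.

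**Figure D1:**
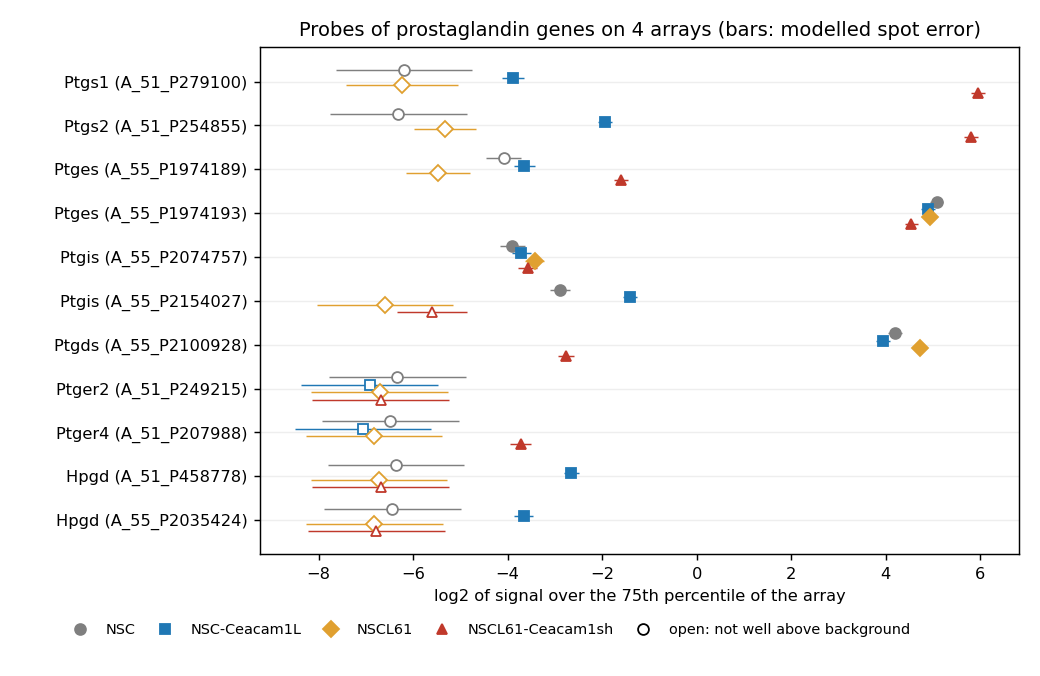
Level of each of the 11 probes on the 4 arrays, as log2 of the processed signal over the 75th percentile of that array, with the modelled spot error as a bar. Filled symbols are well above background and open ones are not; Ptgs1 and Ptgs2 sit near 6 in NSCL61-Ceacam1sh only, and Ptgds falls to -2.77 there.

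Ptgs1 encodes the cyclooxygenase that many tissues make constantly. Its probe, at mm9 chr2:36107644-36107703 on the plus strand, read 6.56 in NSC, 38.7 in NSC-Ceacam1L, 5.82 in NSCL61 and 33526 in NSCL61-Ceacam1sh. The NSC and NSCL61 values were not well above background. In NSCL61-Ceacam1sh, by contrast, the probe was brighter than 94.4% of the probes well above background on that array. The log2 difference between the NSCL61 arrays was 12.19 ± 1.19, at least 1552.5-fold. Between the NSC arrays the difference was 2.31 ± 1.47, but the bound was only at least 1.30-fold, and the call is lost when the bound itself has to reach 2-fold. In NSC-Ceacam1L the signal was brighter than 9.93% of the probes well above background, which places it near the limit of measurement.

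Ptgs2 encodes the inducible cyclooxygenase, which growth factors and inflammatory signals raise. Its probe, at mm9 chr1:151954744-151954803 on the plus strand, was printed 10 times on each array. The signals, averaged over spots on the log2 scale and turned back, were 6.04 in NSC, 149 in NSC-Ceacam1L, 10.98 in NSCL61 and 30304 in NSCL61-Ceacam1sh. The spots ranged from 5.34 to 7.04 in NSC (median 6.03) and from 129 to 172 in NSC-Ceacam1L (median 147). In NSCL61 they ranged from 4.65 to 25.2 (median 11.4), and in NSCL61-Ceacam1sh from 28511 to 31988 (median 30453). The spots of NSC-Ceacam1L and of NSCL61-Ceacam1sh overlapped with those of no other array, whereas NSC and NSCL61 overlapped with each other.

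All 10 Ptgs2 spots were well above background in NSC-Ceacam1L and in NSCL61-Ceacam1sh, 1 of 10 was in NSCL61, and 0 of 10 were in NSC. The SD between spots on the log2 scale was 0.151 in NSC, 0.143 in NSC-Ceacam1L, 0.686 in NSCL61 and 0.0624 in NSCL61-Ceacam1sh. These are repeat spots of 1 RNA sample and say nothing of the spread between cultures. The difference between the NSC arrays was 4.37 ± 1.45, at least 5.03-fold. Between the NSCL61 arrays it was 11.13 ± 0.67, at least 1403-fold.

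**Figure D2:**
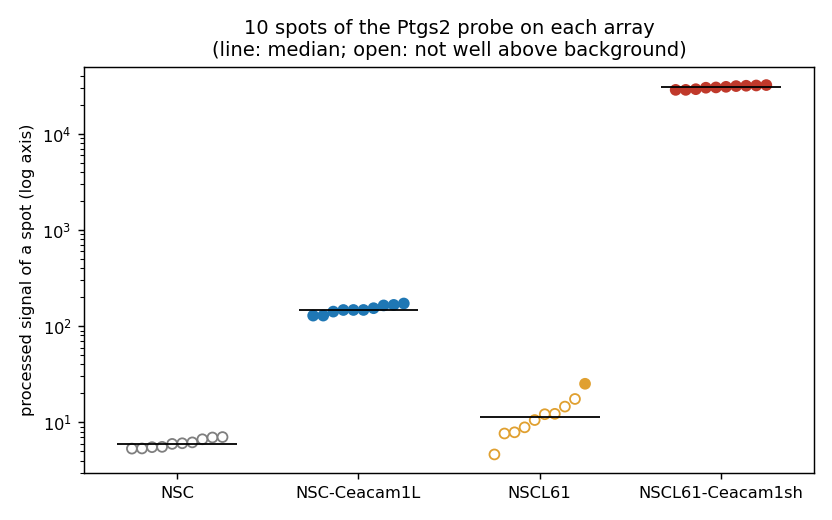
Processed signal of each of the 10 Ptgs2 spots per array on a log axis, with the median as a line; filled spots are well above background. The NSC-Ceacam1L spots (129 to 172) lie between those of NSC and NSCL61, which reach at most 25.2, and those of NSCL61-Ceacam1sh, which start at 28511.

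The folds of the cyclooxygenases depend on how the dark arrays are read. With the normexp background correction, the differences between the NSCL61 arrays were 8.63 for Ptgs1 and 8.31 for Ptgs2, and those between the NSC arrays 0.40 for Ptgs1, no longer called, and 1.40 for Ptgs2. In the authors' deposited table the Ptgs2 difference between the NSCL61 arrays was 9.97. The direction was the same in each of these.

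Both cyclooxygenases were called higher in the Ceacam1L array against NSC and in the hairpin array against NSCL61, although one vector adds Ceacam1 and the other targets it. Whether the 2 increases differ was not tested, since a single array per group leaves no test of such a difference. The level reached differed between the 2 arrays, with Ptgs2 at -1.94 in NSC-Ceacam1L and 5.81 in NSCL61-Ceacam1sh in log2 of the signal over the 75th percentile.

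Ptges encodes microsomal prostaglandin E synthase, which acts after Ptgs2 to make prostaglandin E2. Its 2 probes gave different pictures. They are shown because they lie in the same annotated transcript, 3219 bases apart both in the genome and along the transcript, so that no intron separates them. A_55_P1974189, at mm9 chr2:30748214-30748273 on the minus strand, starts at base 364 of the transcript. A_55_P1974193, at mm9 chr2:30744995-30745054 on the minus strand, starts at base 3583, and only its last 30 bases are printed, with a hexamer of the polyadenylation signal type in capitals.
A_55_P1974189: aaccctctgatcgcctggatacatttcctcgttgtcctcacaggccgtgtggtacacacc
A_55_P1974193: agtcagccccaATTAAAtgctttcctttat

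The probe near the 3' end of Ptges was bright everywhere, at 16200 in NSC, 17044 in NSC-Ceacam1L, 13469.6 in NSCL61 and 12652 in NSCL61-Ceacam1sh. Its differences were small, with -0.18 ± 0.20 between the NSC arrays, -0.39 ± 0.20 between the NSCL61 arrays and -0.14 ± 0.20 between NSCL61 and NSC. The upstream probe read 28.3 in NSC, 45.5 in NSC-Ceacam1L, 9.89 in NSCL61 and 179 in NSCL61-Ceacam1sh, and was well above background only in NSC-Ceacam1L and NSCL61-Ceacam1sh. Its difference between the NSCL61 arrays was 3.88 ± 0.70, at least 8.30-fold higher, and between the NSC arrays 0.44 ± 0.43, at least 1.35-fold. The gene count above takes the probe with the highest mean over the 4 arrays, so it holds Ptges as not called; with the other probe it would be called higher between the NSCL61 arrays. RefSeq places Gm52550 and Gm13400 over Ptges, and which of the probes follows Ptges mRNA cannot be told from these arrays.

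Ptgis encodes prostacyclin synthase. Its 2 probes are annotated to different transcripts, A_55_P2074757 at mm9 chr2:167017317-167017376 and A_55_P2154027 at mm9 chr2:167028696-167028755, both on the minus strand. The first was dim and level, at 32.1, 43.7, 40.7 and 45.3 in NSC, NSC-Ceacam1L, NSCL61 and NSCL61-Ceacam1sh, well above background on all 4. Its differences were 0.19 ± 0.33 between the NSC arrays, -0.15 ± 0.28 between the NSCL61 arrays and 0.47 ± 0.33 between NSCL61 and NSC. The second, the RefSeq transcript's probe, ends with a polyadenylation signal hexamer, in capitals in its last 30 bases.
A_55_P2154027: aagctAATAAAagctctgtatctcgctgtg

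That second Ptgis probe read 64.5 in NSC and 215 in NSC-Ceacam1L, and in NSCL61 (4.54) and NSCL61-Ceacam1sh (11.1) it was not well above background. It was 1.49 ± 0.25 higher in NSC-Ceacam1L than in NSC (2.80-fold), and in NSCL61 it was at least 3.37-fold lower than in NSC. So the Ptgis call also depends on the probe: the gene was not called in any comparison by the first probe, which has the higher mean over the 4 arrays, and was called in 2 of the 3 by the second, which is the brighter one on both NSC arrays.

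**Figure D3:**
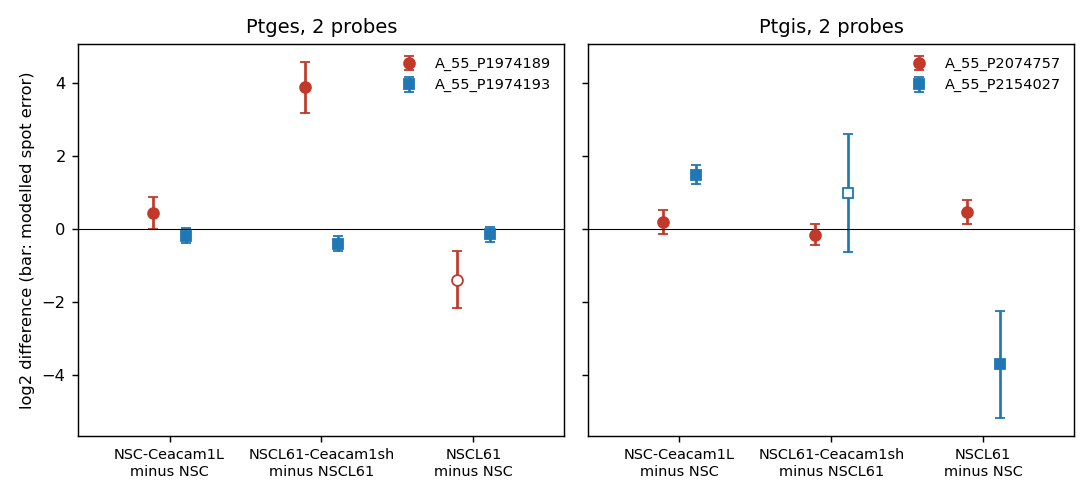
Log2 differences of the 2 probes of Ptges and of Ptgis in the 3 comparisons, with modelled spot errors; open symbols are not well above background on either array. The Ptges probes part between the NSCL61 arrays (3.88 against -0.39), and the Ptgis probes part most between NSCL61 and NSC (-3.70 against 0.47).

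Ptgds encodes the lipocalin-type prostaglandin D synthase, a secreted protein abundant in brain. Its probe, at mm9 chr2:25322232-25322291 on the minus strand, ends tgacaaagaAATAAAagtccaaagcaagtc, with the polyadenylation signal hexamer in capitals, so it too reads the 3' end. It read 8830 in NSC, 8776 in NSC-Ceacam1L, 11572 in NSCL61 and 79.4 in NSCL61-Ceacam1sh, well above background on all 4. The first 3 arrays lie between 3.94 and 4.72 on the log2 scale relative to the 75th percentile, and the hairpin array stands far below them at -2.77. The difference between the NSCL61 arrays was -7.49 ± 0.22, 179.9-fold lower. It ranked 26 by size of decrease among the 12960 genes that both NSCL61 arrays measured well above background. The other 2 differences were not called, at -0.26 ± 0.20 between the NSC arrays and 0.52 ± 0.20 between NSCL61 and NSC.

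Several glial markers were lower together with Ptgds in NSCL61-Ceacam1sh, and so were several neuron and stem cell markers. The summed signal of 6 astrocyte markers, in multiples of the 75th percentile, was 279.9 in NSC, 488 in NSC-Ceacam1L, 684 in NSCL61 and 1.53 in NSCL61-Ceacam1sh, with Gfap, Slc1a2 and Gjb6 not well above background on the last. Of the oligodendrocyte lineage markers, Olig1 and Olig2 were not well above background in NSCL61-Ceacam1sh. Olig1, Olig2 and Sox10 were lower there by 2-fold or more than in NSCL61, Pdgfra (1.61 and 1.03 in log2 of the signal over the 75th percentile) and Mog (-1.03 and -1.57) were within 2-fold, and the Mbp probe went from -5.46 to -4.23. Between NSC and NSC-Ceacam1L, Gfap went from -3.01 to 4.32 and Aqp4 from -1.14 to 2.63, while Ptgds was not called there. The 8 markers of meninges and fibroblasts summed to 1.67, 1.70, 1.32 and 22.6. Of these, Col1a1, Col1a2, Col3a1, Dcn and Pdgfrb were higher in NSCL61-Ceacam1sh than in NSCL61, Foxc1 was level (0.03 and -0.06), and Lum and Slc6a13 were not well above background on either array. The 5 neuron markers summed to 17.2, 22.8, 57.2 and 9.14. From NSCL61 to NSCL61-Ceacam1sh, Tubb3 went from 5.29 to 0.64 and Snap25 from 4.14 to 2.91. Dcx, Rbfox3 and Syt1 were not well above background in NSCL61-Ceacam1sh, nor was Rbfox3 in NSCL61. Of the stem cell markers, Sox1 went from 2.56 to -3.55, Sox2 from 4.12 to 2.36 and Nes from 6.13 to 4.95, while Vim (8.76 and 8.13) and Pax6 (-1.48 and -1.35) were within 2-fold. The part of these cell types in the Ptgds difference was not tested. In such bulk RNA, fewer cells of a type and less RNA per cell cannot be told apart.

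Microglia and macrophages also make cyclooxygenases, and their markers did not move in one direction. The 7 markers summed to 21.7 in NSC, 26.9 in NSC-Ceacam1L, 28.4 in NSCL61 and 15.4 in NSCL61-Ceacam1sh. Aif1 and Ptprc were not well above background on any of the 4 arrays, and Cx3cr1 only in NSCL61. Tmem119 was higher, at -3.83 in NSCL61 and 1.36 in NSCL61-Ceacam1sh, while Itgam (4.51 and 3.23) and Cd68 (0.78 and -0.48) were lower and Csf1r (1.91 and 1.41) stayed within 2-fold. The part of such cells in the cyclooxygenase levels was not tested. Endothelial markers (5 genes) summed to 10.8, 8.65, 13.9 and 8.62, and Cdh5, Cldn5 and Tek were not well above background in NSCL61-Ceacam1sh. The 5 pericyte and smooth muscle markers summed to 3.72, 8.79, 4.61 and 17.2, with only 1 of them well above background in NSCL61-Ceacam1sh. That was Acta2, at 2.07 in NSCL61 and 4.10 in NSCL61-Ceacam1sh. Cspg4 (-1.68 and -4.75) and Rgs5 (-4.29 and -6.69) were lower there, and Kcnj8 and Abcc9 were not well above background on any array. The sum of the meninges and fibroblast markers was higher in the hairpin array, as Ptgs1 and Ptgs2 were, with 6 of 8 well above background there and 4 of 8 in NSCL61; their part in those increases was not tested.

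Ptger2 and Ptger4 encode the prostaglandin E2 receptors that raise cAMP. The Ptger2 probe, at mm9 chr14:45622004-45622063 on the plus strand, read 5.95 in NSC, 4.71 in NSC-Ceacam1L, 4.21 in NSCL61 and 5.26 in NSCL61-Ceacam1sh, not well above background on any array. The Ptger4 probe, at mm9 chr15:5184419-5184478 on the minus strand, read 5.37, 4.27, 3.86 and 41.0 on the same arrays, and only the last value was well above background. Between the NSCL61 arrays the Ptger4 difference was 3.103 ± 1.464, with a bound of at least 1.90-fold. This call is lost when the bound itself has to reach 2-fold and with the normexp background correction (0.58). The Ptger4 signal was brighter than 9.42% of the probes well above background in NSCL61-Ceacam1sh.

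Of the other 7 surface receptors of prostanoids, Ptgfr, the prostaglandin F2 alpha receptor, read 5.09 in NSC, 10.6 in NSC-Ceacam1L, 3.57 in NSCL61 and 815 in NSCL61-Ceacam1sh. Only the last was well above background, and the difference between the NSCL61 arrays was 7.53 ± 1.45, at least 37.7-fold. Ptgir, the prostacyclin receptor, and Ptgdr2, a prostaglandin D2 receptor, were also well above background in NSCL61-Ceacam1sh only, with bounds of at least 1.07-fold and 1.09-fold. These 3 receptors could only come out higher, since they were evaluated through that array alone. Ptger1, Ptger3, Ptgdr and Tbxa2r were not well above background on any array.

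**Figure D4:**
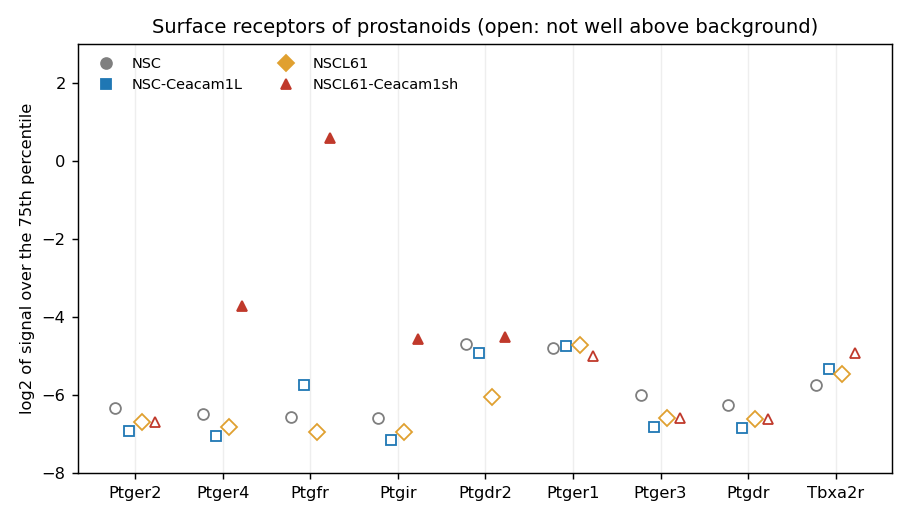
Levels of 9 surface receptors of prostanoids on the 4 arrays, as log2 of the signal over the 75th percentile, with filled symbols well above background. Filled symbols occur in NSCL61-Ceacam1sh only, for Ptger4, Ptgfr, Ptgir and Ptgdr2, where Ptgfr is at 0.59.

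Hpgd encodes the dehydrogenase that inactivates prostaglandin E2 inside cells. Its 2 probes, A_51_P458778 at mm9 chr8:58799399-58799458 and A_55_P2035424 at mm9 chr8:58798941-58799000, both on the plus strand, lie 458 bases apart in 1 transcript with no intron between them. A_51_P458778 read 5.84 in NSC, 90.8 in NSC-Ceacam1L, 4.16 in NSCL61 and 5.25 in NSCL61-Ceacam1sh. A_55_P2035424 read 5.54, 45.1, 3.88 and 4.94. Both probes were well above background in NSC-Ceacam1L alone. The difference between the NSC arrays was 3.71 ± 1.45 (at least 3.07-fold) by the first and 2.78 ± 1.46 (at least 1.52-fold) by the second. With the normexp background correction the first probe differed by 1.04. Hpgd was the member seen in NSC-Ceacam1L and not in NSCL61-Ceacam1sh, the reverse of Ptger4; both signals were dim.

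Between NSCL61 and NSC, Ptges (-0.14), Ptgis (0.47) and Ptgds (0.52) were within 2-fold by the probes with the highest mean over the 4 arrays. The RefSeq probe of Ptgis was lower in NSCL61, as given above (-3.70, at least 3.37-fold), and with the mean of both probes Ptgis was called lower (-1.61). The other 5 genes were not well above background on either array, so no fold is given. This comparison shares the NSC array with the Ceacam1L comparison and the NSCL61 array with the hairpin comparison.

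The rest of the prostanoid pathway was read from a list of 44 other genes: phospholipases A2, synthases, receptors, transport and breakdown enzymes. Between the NSC arrays, 25 were evaluated, 4 were called higher and 0 lower, beside 10.5% and 6.05% of all evaluated genes. Their median log2 difference was 0.00, beside -0.10 over all. Of these 25, 22 were well above background on both arrays, with 2 higher and 0 lower. The median of those 22 was -0.02, beside -0.13 over all such genes. Between the NSCL61 arrays, 29 were evaluated, 14 were called higher and 2 lower, beside 23.4% and 24.3% of all evaluated genes, with a median of 0.73 beside 0.01 over all. Of these 29, 22 were well above background on both arrays, of which 8 were higher and 1 lower, with a median of 0.44 beside 0.07 over all such genes; the others entered through the array where they were bright. Between NSCL61 and NSC, 25 were evaluated, 3 were called higher and 8 lower, beside 14.4% and 14% of all evaluated genes. The median was -0.02 beside 0.03 over all. Of the 20 well above background on both arrays, 1 was higher and 6 lower, with a median of -0.18 beside 0.01 over all such genes.

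Upstream of the cyclooxygenases, Pla2g4a encodes the cytosolic phospholipase A2 that releases arachidonate. It read 757 in NSC, 1504 in NSC-Ceacam1L, 7.93 in NSCL61 and 226 in NSCL61-Ceacam1sh, and only in NSCL61 was it not well above background. It was at least 39.5-fold lower in NSCL61 than in NSC and at least 10.5-fold higher in NSCL61-Ceacam1sh than in NSCL61. Pla2g7, which hydrolyses platelet-activating factor rather than releasing arachidonate, read 7430 in NSC, 44134 in NSC-Ceacam1L, 21.6 in NSCL61 and 10205 in NSCL61-Ceacam1sh. Its difference was 2.32 ± 0.20 between the NSC arrays, 8.58 ± 0.34 between the NSCL61 arrays and -8.30 ± 0.34 between NSCL61 and NSC. For both genes NSCL61 was the low array.

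Of the other phospholipases evaluated, Pla2g12a was higher (1.34 ± 0.20) and Pla2g5 lower (-1.23 ± 0.37) between the NSCL61 arrays, and Pla2g3 was at least 2.89-fold lower. In NSC-Ceacam1L against NSC, Pla2g5 was at least 12.8-fold and Pla2g2d at least 2.93-fold higher. Between NSCL61 and NSC, Pla2g3 was lower (-2.52 ± 0.25), while Pla2g5 and Pla2g2e were at least 2.155-fold and 2.002-fold higher.

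The other prostaglandin E synthases, Ptges2 and Ptges3, were not called in any of the 3 comparisons. Ptges2 read 2680 in NSC, 2628 in NSC-Ceacam1L, 1929 in NSCL61 and 2758 in NSCL61-Ceacam1sh. Prxl2b, the prostamide and prostaglandin F synthase, read 3660, 5209, 13.8 and 4.66 on the same arrays, not well above background on the last 2. It was at least 191-fold lower in NSCL61 than in NSC.

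Transport and breakdown genes were called higher in 7 of 11 evaluated cases between the NSCL61 arrays and lower in 0, beside 23.4% and 24.3% of all evaluated genes. Slco2a1 and Akr1c18 entered through the hairpin array alone, and of the 9 well above background on both arrays 5 were higher. Slco2a1, the prostaglandin uptake transporter, read 21.5, 20.6 and 14.0 in NSC, NSC-Ceacam1L and NSCL61, not well above background, and 381 in NSCL61-Ceacam1sh, at least 17.6-fold higher than in NSCL61. Ptgr1, which reduces the products of Hpgd further, was higher by 2.89 ± 0.20, and Cbr3, a carbonyl reductase, by 3.49 ± 0.20. Slco3a1, another organic anion transporter, was higher by 1.47 ± 0.20.

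Aldo-keto reductases were among the genes called higher. Akr1c18, known for breaking down progesterone as well as for acting on prostaglandins, read 19.1, 21.6 and 20.6 in NSC, NSC-Ceacam1L and NSCL61, not well above background, and 8921 in NSCL61-Ceacam1sh. It was at least 350.6-fold higher there than in NSCL61. Akr1b8 was higher by 4.90 ± 0.20 and Akr1b3, aldose reductase, by 2.47 ± 0.20. Genes of these families are close copies, and their probes may not tell the members apart. Between NSCL61 and NSC, 5 of 10 evaluated genes of the class were lower, beside 14% of all evaluated genes. They were Ptgr1 (-1.71), Ptgr2 (-1.03), Cbr3 (-2.57), Akr1b10 (-1.10) and Prxl2b, which the list counts here. Between the NSC arrays, Abcc4, a prostaglandin exporter, was higher by 1.04 ± 0.20.

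**Figure D5:**
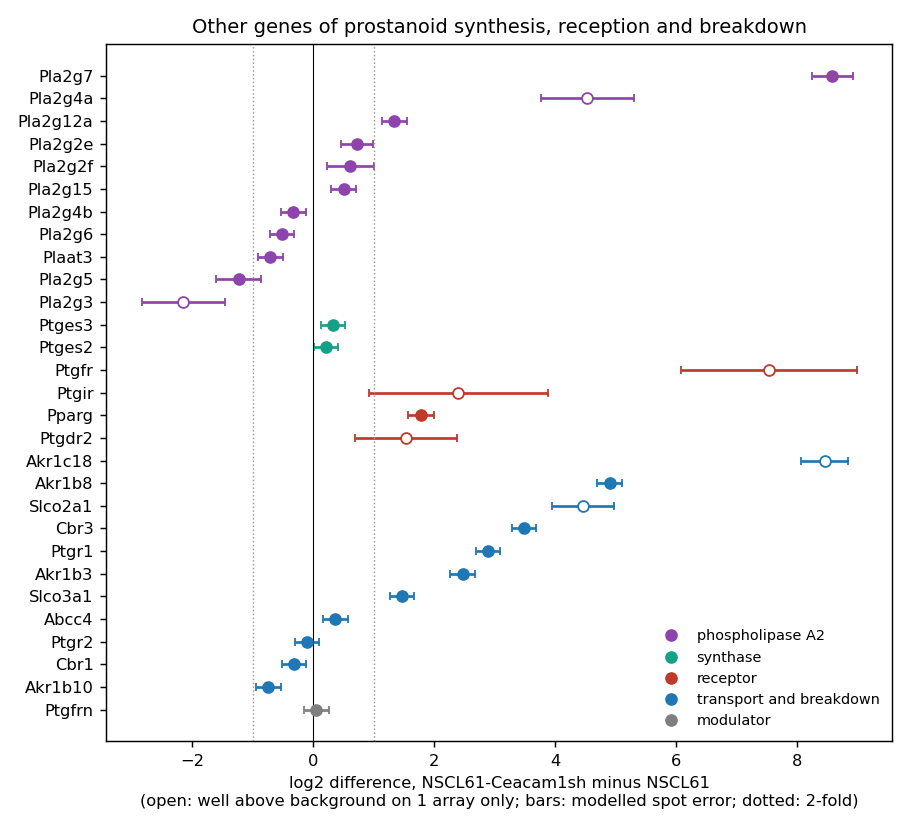
Log2 differences between NSCL61-Ceacam1sh and NSCL61 for the 29 evaluated genes of the rest of the pathway, ordered by role, with modelled spot errors; open symbols passed the background test on a single array and dotted lines mark 2-fold. All 4 evaluated receptors lie above 1, but 3 of them (Ptgfr, Ptgir and Ptgdr2) entered through the hairpin array alone; 7 of 11 transport and breakdown genes lie above 1 and both synthases within 2-fold.

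Pparg, a nuclear receptor that binds prostaglandin D2 products, was higher by 1.79 ± 0.21 between the NSCL61 arrays. Ptgfrn, a membrane partner of the prostaglandin F receptor, was higher by 1.20 ± 0.21 in NSCL61 than in NSC.

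The neighbouring lipoxygenase and leukotriene branch, which uses the same arachidonate, was mostly dim. Of its 15 genes, 8 were evaluated between the NSCL61 arrays, with 1 higher and 2 lower, beside 23.4% and 24.3% of all evaluated genes. Their median was -0.62, and none of the 3 called was well above background on both arrays. The one higher was Aloxe3, an epidermal lipoxygenase, at least 5.77-fold, and the ones lower were Ltb4r1, a leukotriene B4 receptor, at least 2.81-fold, and Alox12e, at least 1.95-fold. In NSC-Ceacam1L against NSC, 4 of 9 were higher and 0 lower, beside 10.5% and 6.05% of all evaluated genes. The median was 0.97 beside -0.10 over all. For the 5 well above background on both arrays it was -0.46, with 1 higher and 0 lower. Of the 4 called higher, Ephx2, the soluble epoxide hydrolase, was higher by 3.03 ± 0.23 and was the only 1 well above background on both arrays. In NSCL61 against NSC, 2 of 8 were higher and 1 lower, beside 14.4% and 14% of all evaluated genes, with a median of 0.59. Of the 4 well above background on both arrays, 0 were called, with a median of 0.29.

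Known inducers of Ptgs2 and Ptges, a list of 20 genes, had 17 evaluated between the NSCL61 arrays, of which 10 were higher and 1 lower, beside 23.4% and 24.3% of all evaluated genes, with a median of 2.28 beside 0.01 over all. Of the 16 well above background on both arrays, 9 were higher and 1 lower, with a median of 1.91. This list, like the others, was chosen with earlier results of these data known, so its counts are a description only. Il6 read 6.22, 4.99 and 4.39 in NSC, NSC-Ceacam1L and NSCL61, not well above background, and 2711 in NSCL61-Ceacam1sh, at least 125.5-fold higher than in NSCL61. Receptors of the interleukin-1 and Toll family were higher, with Tlr2 by 4.61 ± 0.30, Il1rap by 4.32 ± 0.22, Tlr4 by 4.07 ± 0.39 and Il1r1 by 2.48 ± 0.21. So were Fosl1 (5.24 ± 0.21) and Cebpb (2.28 ± 0.20), which encode transcription factors, and the NF-kappaB subunits Nfkb1 (2.59), Nfkb2 (2.30) and Relb (1.53), whereas the subunit Rela was level (-0.11 ± 0.20). Tnfrsf1a, a receptor of tumour necrosis factor, was lower (-1.07 ± 0.20). The ligand genes Il1a, Il1b and Tnf were not well above background on any array. Lif (-0.91), Cebpd (-0.66), Jun (-0.44), Egr1 (0.60) and Hif1a (0.99) were within 2-fold.

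In NSC-Ceacam1L against NSC, 3 of 13 evaluated inducers were higher and 0 lower, beside 10.5% and 6.05% of all evaluated genes, with a median of 0.20. The 3 were Il1r1 (at least 5.98-fold), Tlr2 (2.07 ± 0.35) and Cebpd (1.54 ± 0.20). Il1r1 and Tlr2 were thus called higher in the Ceacam1L array against NSC and in the hairpin array against NSCL61, as Ptgs1 and Ptgs2 were. Of the other lists, so were Pla2g7, Aloxe3, Nr4a1 and Sik1. The share of all genes called higher in both comparisons was not counted. In NSCL61 against NSC, 8 of 16 were higher and 1 lower, beside 14.4% and 14% of all evaluated genes, with a median of 0.93 beside 0.03 over all. Of the 12 well above background on both arrays, 4 were higher and 1 lower, with a median of 0.59.

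Genes known to respond to cAMP, a list of 16, had 12 evaluated between the NSCL61 arrays, with 4 higher and 1 lower, beside 23.4% and 24.3% of all evaluated genes. The median was 0.25. Of the 11 well above background on both arrays, 3 were higher and 1 lower, with a median of 0.10. Areg, a ligand of the epidermal growth factor receptor, read 244 in NSC, 106.9 in NSC-Ceacam1L, 9.80 in NSCL61 and 5495 in NSCL61-Ceacam1sh, at least 254-fold higher than in NSCL61. The nuclear receptors Nr4a1 (1.89) and Nr4a2 (2.41) and the kinase gene Sik1 (1.99) were higher, and Fos was lower (-3.12 ± 0.20). Between the NSC arrays, 3 of 14 were higher and 2 lower, beside 10.5% and 6.05% of all evaluated genes, with a median of 0.22. Between NSCL61 and NSC, 2 of 13 were higher and 6 lower, beside 14.4% and 14%, with a median of -0.97. Over the genes well above background on both arrays, these 2 medians were -0.04 and -0.50.

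For each member well above background on at least 1 array, the genes with the most alike pattern were found as the smallest Euclidean distance of log2 values over the 4 arrays, each gene centred on its own mean, among genes well above background on the same arrays. The nearest to Ptgs1 were Cd34 (distance 1.70), Ptgs2 (1.73) and Crabp1 (2.23), and the nearest to Ptgs2 were Ptgs1 (1.73), Crabp1 (2.12) and Thbs1 (2.19), of 152 candidates. Cd34 encodes a surface sialomucin, Crabp1 a retinoic acid binding protein and Thbs1 a matrix glycoprotein. Of 12472 candidates, Cdh22 (0.47), Adgrg1 (0.59) and Nrxn2 (0.75) were nearest to Ptgds. They encode a cadherin, an adhesion receptor and a neurexin. Each was lower in NSCL61-Ceacam1sh than on the other 3 arrays, which follows from how they were chosen.

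By the probe with the highest mean, the other members searched had flat (Ptges, Ptgis) or single-array (Ptger4, Hpgd) patterns. The upstream Ptges probe and the RefSeq probe of Ptgis, which were not flat, were not used here. The nearest to Ptges were Cnpy4, Wdr37 and Tmem230, at distances of 0.023 to 0.042, and to Ptgis Adprm, Ctr9 and Marchf2, at 0.038 to 0.062. The nearest to Ptger4 were Slc24a1, Fam71e2 and 4930556M19Rik (0.022 to 0.025, of 633 candidates), and to Hpgd Htr4, Ppp2r2cos and Glycam1 (0.046 to 0.075, of 486 candidates). With 4 arrays as the only points, such distances describe these arrays.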

How the data were processed

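Total RNA of 4 cultures, 1 array each, was read as intensity values, the processed signals of single-colour Agilent arrays (design 028005, mm9 coordinates). Per the file headers, the intensities were background-subtracted and detrended in Agilent Feature Extraction 10.7.3.1 before the authors deposited them; version 9.1 is named in the submitters' processing notes. The table of processed log2 values deposited by the authors, whose centring is unknown, was an alternative only.

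Outlier and control spots were left out, signals were divided by the array's 75th percentile and log2 values of repeat spots were averaged. A probe was well above background when at least 50% of its spots were by the scanner's own test. A gene took its probe with the highest mean over the 4 arrays. Names came from accessions (27235 probes), symbols (3581) and older symbols (565) in the RefSeq table of GRCm38.p6, and 24300 probes stayed unnamed. Groups came from sample titles. With 1 array per group no test across samples was made, and that number of arrays limits the precision. The calling step was tested on simulated data.

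The members and gene lists were chosen with earlier results of these data known. Of the lists, genes called at 2-fold were eligible to be named. Alternatives covered background correction (limma 3.58.1 in R 4.3.3, normexp with offset 50), scaling, the dim-probe filter, the fold, the probe rule and the authors' table. One oligodendrocyte lineage marker is not reported here.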

Additional observations from a re-analysis of the deposited data

How the results depend on the processing

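Directions of the called members (Ptgs1, Ptgs2 and Hpgd between the NSC arrays, Ptgs1, Ptgs2, Ptger4 and Ptgds between the NSCL61 arrays) were the same under all the scalings and corrections tried. The log2 difference between the NSCL61 arrays ranged from 8.63 to 12.62 for Ptgs1, from 8.31 to 11.56 for Ptgs2 and from -7.66 to -6.70 for Ptgds; between the NSC arrays it ranged from 1.40 to 4.75 for Ptgs2 and from 1.04 to 4.08 for Hpgd. Of 132 counts recomputed, 118 stayed within 1.5 times the reported one. With normexp, other pathway genes called higher were 2 between the NSC arrays and 0 between NSCL61 and NSC, and those called lower between the NSCL61 arrays were 0. That last count was 1 with quantile normalization, median scaling, cyclic loess, spike-in scaling, the mean of all probes of a gene and the probe with the lowest mean. At 1.5-fold, other pathway genes were 3 lower between the NSC arrays, 4 lower between the NSCL61 arrays and 5 higher between NSCL61 and NSC. With the mean of all probes, or the probe with the lowest mean, 1 member, Ptgis, was lower between NSCL61 and NSC, and with the mean of its probes Ptges (1.74) was called higher between the NSCL61 arrays, where members higher were then 4. The cause was not tested. Some uncalled differences of Ptges, Ptgis and Ptgds change sign with the scaling. Ptges between the NSCL61 arrays was 0.03 with median scaling, Ptgis there was 0.23 with quantile normalization, and Ptgds between the NSC arrays was 0.12 with spike-in scaling. Between NSCL61 and NSC, Ptges stayed negative (-1.39 to -0.03) and Ptgds positive (0.29 to 0.55) in every setting. Scaling moved the median of all genes by over 0.1 in places, to 0.43 (median) and 0.44 (spike-in) between the NSCL61 arrays, to 0.27 (spike-in) and 0.12 (cyclic loess) between the NSC arrays, and to -0.20 (spike-in) between NSCL61 and NSC. When the bound itself had to reach 2-fold, a setting added with the lowest-mean probe after the data were seen, 2 members were higher in each manipulated comparison. No paired analysis was possible because each group has 1 array. Signal over background limits Ptgs1 in NSC-Ceacam1L, Ptger4 and the dim probe of Ptgis.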
